A study of Rattus norvegicus with 6 samples.

Results

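Igf1, Vegfa, Fgf2 and Tgfb1 encode 4 secreted growth factors that glial cells of the brain are known to make, and their messenger RNA was compared across 3 cultured rat cell types. The 4 genes were chosen by their Ensembl rat identifiers, ENSRNOG00000004517 (Igf1), ENSRNOG00000019598 (Vegfa), ENSRNOG00000017392 (Fgf2) and ENSRNOG00000020652 (Tgfb1), from the 26405 genes of the count table, and all 4 were among the 18206 genes that passed the filter on low counts. The identifiers were paired with these symbols by the list that defined the set; the deposited table holds no symbols, and the RefSeq table at hand paired 0 of its identifiers with one. RNA was sequenced from 6 libraries, 2 each of astrocytes, the main support cells of brain tissue, of neurons, and of oligodendrocyte precursor cells (OPCs), which give rise to the myelin-forming cells. No genotype, strain, age, culture medium or added agent is stated for any group. Each cell type was bought as its own product; astrocytes and OPCs were passaged 1 time and grown for 8 days before and 6 days after it, and neurons were grown for 7 days with 0 passages, so cell type cannot be told apart from product and, for neurons, from passage and culture time.

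All 4 factors act on neighbouring cells through receptors on the cell surface. Insulin-like growth factor 1 (Igf1) signals through a receptor tyrosine kinase and promotes growth, survival and myelination. Vascular endothelial growth factor A (Vegfa) drives the growth of blood vessels and is induced when oxygen is low. Fibroblast growth factor 2 (Fgf2) is a mitogen for neural progenitors and OPCs and leaves the cell without a classical signal peptide. Transforming growth factor beta 1 (Tgfb1) is released in a latent form and, once activated, signals through serine/threonine kinase receptors to Smad proteins; it is known for its part in glial reactivity and matrix production.

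Tgfb1 and Fgf2 were highest in astrocytes and low in both neurons and OPCs. Igf1 was found in astrocytes and neurons and had 0 counts in OPCs, while Vegfa stood at 19.9 CPM or more in every library. Whether the promoters bear on these levels was not tested. The promoters of the 4 genes are shown for description only. They are RefSeq sequences of the rat assembly GRCr8, from 250 bases before to 50 bases after the annotated start, all on the + strand: Vegfa at chr9:22452604-22452903, Igf1 at chr7:24172282-24172581, Fgf2 at chr2:122164204-122164503 and Tgfb1 at chr1:90324062-90324361. Capitals mark matches to GGGCGG (the GC box bound by Sp1 family factors), ACGTG (the core of the hypoxia response element) or TGANTCA (the AP-1 motif), each searched on both strands; the letters of these motifs do not overlap in the windows shown.
Vegfa: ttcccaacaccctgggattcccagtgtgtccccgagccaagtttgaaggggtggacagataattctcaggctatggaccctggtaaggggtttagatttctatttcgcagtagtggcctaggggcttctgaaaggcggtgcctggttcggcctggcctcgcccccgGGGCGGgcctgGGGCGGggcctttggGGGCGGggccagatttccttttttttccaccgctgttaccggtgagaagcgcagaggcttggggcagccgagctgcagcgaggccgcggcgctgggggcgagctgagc
Igf1: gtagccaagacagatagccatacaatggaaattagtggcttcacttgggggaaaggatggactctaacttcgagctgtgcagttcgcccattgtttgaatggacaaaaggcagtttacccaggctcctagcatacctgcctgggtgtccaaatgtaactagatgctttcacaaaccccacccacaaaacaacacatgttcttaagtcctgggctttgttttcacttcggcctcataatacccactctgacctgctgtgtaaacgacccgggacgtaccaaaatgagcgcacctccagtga
Fgf2: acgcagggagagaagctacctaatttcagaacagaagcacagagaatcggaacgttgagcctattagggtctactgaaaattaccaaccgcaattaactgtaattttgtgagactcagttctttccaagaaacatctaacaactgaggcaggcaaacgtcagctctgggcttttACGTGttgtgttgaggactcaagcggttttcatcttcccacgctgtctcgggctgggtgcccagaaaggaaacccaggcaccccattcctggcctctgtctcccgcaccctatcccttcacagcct
Tgfb1: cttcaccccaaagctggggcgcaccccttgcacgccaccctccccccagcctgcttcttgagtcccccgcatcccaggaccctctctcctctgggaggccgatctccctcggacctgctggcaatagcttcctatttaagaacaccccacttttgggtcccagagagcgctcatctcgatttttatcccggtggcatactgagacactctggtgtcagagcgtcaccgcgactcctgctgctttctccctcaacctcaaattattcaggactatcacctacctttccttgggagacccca

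The Vegfa promoter held 3 GC boxes and a GC content of 63.3%, against a median of 51.7% over the 33469 rat promoters of the same length. A GC box was present in 33.1% of all these promoters and in none of the windows of Igf1, Fgf2 and Tgfb1, whose GC contents were 48.3%, 49.7% and 57.7%. The hypoxia response core matched 1 time, in Fgf2, and is found in 19.3% of all promoters; the AP-1 motif, found in 7.33%, matched in none of the 4 windows. A further annotated Vegfa start, with its window at chr9:22460028-22460327, held 0 matches to the 3 motifs. These matches describe the letters of the windows only, since no binding was measured. Sites more than 250 bases before a start were not searched, so a window without a match does not show that the gene lacks the motif.

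The libraries held between 22265917 and 102861667 counts. In OPC replicate 1, the library with the fewest, 3 counts equal a level of 0.115 CPM (the count scaled to library size, here always with TMM factors). The intervals and limits given for single libraries cover counting error only. Levels below are CPM without division by gene length, so they are compared between cell types for each gene and not between genes. Replicates are not stated to come from separate cultures, so the p-values reflect the variation among these libraries, part or all of which may be technical. Lists of cell type markers and of other genes of the 4 pathways were drawn up by symbol and are not analysed here, because the identifiers could not be paired with symbols; the labelled cell types were thus not checked against their markers. In bulk samples fewer cells of a type and less RNA per cell cannot be told apart.

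Tgfb1 was an astrocyte-high gene with closely matched replicates, and both of its calls against astrocytes were kept under all 15 alternatives run. Its level was 43.3 and 47.4 CPM in the astrocyte replicates (3538 and 1990 counts), 0.426 and 0.346 CPM in the neuron replicates (39 and 20 counts) and 0.154 and 0.173 CPM in the OPC replicates (4 and 8 counts). Both astrocyte libraries lay far above the other 4, and the neuron libraries lay above the OPC libraries. Group means were 45.4 ± 2.86 CPM in astrocytes, 0.386 ± 0.057 CPM in neurons and 0.164 ± 0.014 CPM in OPCs (SD, n = 2 each). Tgfb1 was lower in neurons than in astrocytes with a log2 difference of -6.86 ± 0.41 (SE; edgeR quasi-likelihood test, Benjamini-Hochberg adjusted p = 0.000305), a 116-fold difference. It was lower in OPCs than in astrocytes with a log2 difference of -8.08 ± 0.45 (SE; edgeR adjusted p = 0.000392), a 271-fold difference.

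Between neurons and OPCs the order of Tgfb1 did not pass the threshold. The log2 fold change was 1.22 ± 0.41 (SE; 95% interval 0.26 to 2.18, not adjusted for the number of genes), with an edgeR p of 0.0194 before and 0.0978 after adjustment. The 95% Poisson interval of OPC replicate 1, 0.0419 to 0.394 CPM, took in the level of neuron replicate 2 but not that of neuron replicate 1. The interval of OPC replicate 2, 0.0748 to 0.341 CPM, took in neither. The intervals of neuron replicates 1 and 2, 0.303 to 0.583 and 0.211 to 0.534 CPM, each overlapped those of OPC replicates 1 and 2.

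Fgf2 was also highest in astrocytes. Its level was 11.7 and 5.57 CPM in the astrocyte replicates (957 and 234 counts), 0.284 and 0.156 CPM in the neuron replicates (26 and 9 counts) and 0.577 and 0.390 CPM in the OPC replicates (15 and 18 counts). The lower astrocyte library was above every neuron and OPC library, and both OPC libraries were above both neuron libraries. The means were 8.65 ± 4.35 CPM in astrocytes, 0.220 ± 0.091 CPM in neurons and 0.483 ± 0.132 CPM in OPCs (SD, n = 2 each).

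Fgf2 was lower in neurons than in astrocytes with a log2 difference of -5.26 ± 0.69 (SE; edgeR adjusted p = 0.00201), a 38.4-fold difference that became -4.53 on the log2 scale without astrocyte replicate 1. It was lower in OPCs than in astrocytes with a log2 difference of -4.17 ± 0.66 (SE; edgeR adjusted p = 0.00489), an 18.04-fold difference. This second difference was -3.42 on the log2 scale without astrocyte replicate 1, and it lost its call without OPC replicate 2 (edgeR adjusted p = 0.0549). The difference between neurons and OPCs was -1.09 ± 0.64 (SE; 95% interval -2.59 to 0.41; edgeR adjusted p = 0.305) and was not distinguishable from the spread between replicates. In the RefSeq annotation Fgf2 overlaps 1 other gene, Nudt6, which lies on the opposite strand. Whether counting used strand is not given in the sources used here, so reads from the overlap cannot be assigned to one of the pair.

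Igf1 was found in astrocytes and neurons and had no count in OPCs. The astrocyte replicates stood at 5.66 and 1.60 CPM (462 and 67 counts), the neuron replicates at 1.92 and 0.536 CPM (176 and 31 counts), and both OPC replicates at 0 counts. A count of 0 allows a level of up to 0.115 CPM in OPC replicate 1 and 0.065 CPM in OPC replicate 2 (3 counts per library). Neuron replicate 1 was above astrocyte replicate 2, so the astrocyte and neuron ranges overlapped. The means were 3.63 ± 2.87 CPM in astrocytes and 1.23 ± 0.98 CPM in neurons (SD, n = 2 each).

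With the OPC level set to its upper limit of 3 counts for both libraries together, 0.0416 CPM, mean Igf1 in astrocytes was 87.3-fold higher. Astrocyte replicate 1 was 136-fold and astrocyte replicate 2 38.4-fold above the same limit. Such folds allow for counting error in OPCs only, not for the spread between replicates, and a higher limit would make them smaller. The edgeR test used the counts as found, without this limit, and gave an adjusted p of 0.00892 for OPCs against astrocytes. Mean Igf1 in neurons was 29.6-fold higher than the OPC limit, with neuron replicate 1 46.3-fold and neuron replicate 2 12.9-fold higher. For neurons against OPCs the edgeR test, again on the counts as found, gave an adjusted p of 0.0318. The call for astrocytes over OPCs was lost without OPC replicate 2. The call for neurons over OPCs was lost without OPC replicate 1 and without OPC replicate 2. Each of these fits had 1 OPC library left, also at 0 counts of Igf1, and the direction of the difference was kept. Neurons and astrocytes could not be told apart for Igf1, with a log2 fold change of -1.56 ± 0.90 (SE; 95% interval -3.76 to 0.65; edgeR adjusted p = 0.238). This value rested on single libraries: it became -0.27 or -2.18 when astrocyte replicate 1 or 2 was left out, and -2.76 or -0.92 when neuron replicate 1 or 2 was.

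Vegfa was present at 19.9 CPM or more in each of the 6 libraries, and no pair of cell types passed the test. The astrocyte replicates stood at 50.7 and 19.9 CPM (4140 and 837 counts), the neuron replicates at 73.2 and 26.4 CPM (6696 and 1525 counts) and the OPC replicates at 60.7 and 106 CPM (1578 and 4892 counts). The ranges of astrocytes and neurons overlapped, as did those of neurons and OPCs, while both OPC libraries were above both astrocyte libraries. The means were 35.3 ± 21.8 CPM in astrocytes, 49.8 ± 33.1 CPM in neurons and 83.3 ± 32.0 CPM in OPCs (SD, n = 2 each).

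The log2 fold change of Vegfa was 0.49 ± 0.62 for neurons over astrocytes (SE; 95% interval -0.98 to 1.97; edgeR adjusted p = 0.583). Its direction turned without astrocyte replicate 2 (-0.01) and without neuron replicate 1 (-0.42), and it was 1.42 without astrocyte replicate 1. For OPCs over astrocytes the log2 fold change was 1.24 ± 0.63 (95% interval -0.26 to 2.73; edgeR adjusted p = 0.212), and 2.18 without astrocyte replicate 1. For neurons over OPCs it was -0.74 ± 0.63 (95% interval -2.22 to 0.74; edgeR adjusted p = 0.482), which became -1.66 without neuron replicate 1 and -0.19 without neuron replicate 2. Each of the 3 intervals includes 0 and also differences of more than 1 on the log2 scale, so the test does not show that the levels were equal. The lowest unadjusted edgeR p of the 3 was 0.0912, and neither DESeq2 nor limma-voom called Vegfa in any comparison.

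**Figure D1:**
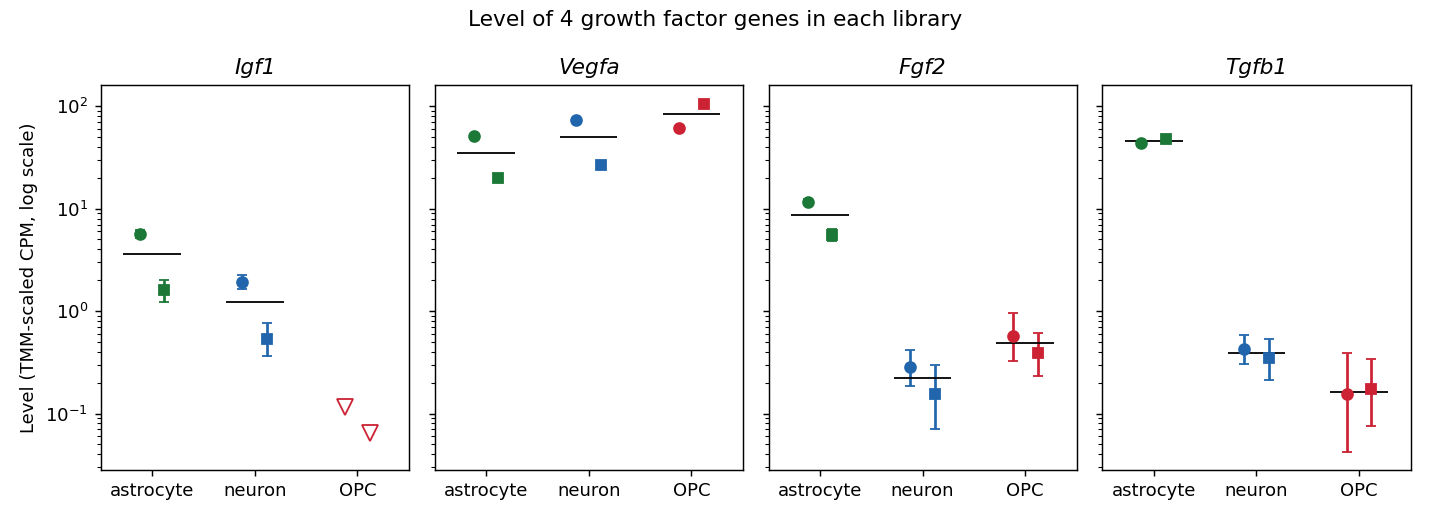
Level of each gene in each library, in TMM-scaled CPM on a log axis, for astrocytes (green), neurons (blue) and OPCs (red). Circles are replicate 1, squares replicate 2, bars the 95% Poisson interval of counting error and horizontal lines the group means; open triangles stand at the limit of 3 counts for the OPC libraries with 0 counts of Igf1. Tgfb1 and Fgf2 are high in both astrocyte libraries alone, and the Vegfa libraries lie between 19.9 and 106 CPM.

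Read over the set, 2 of the 4 genes passed the test in neurons against astrocytes, both lower in neurons, where 15.9% of all genes tested were called higher in astrocytes and 30.4% were called in either direction. In OPCs against astrocytes 3 of the 4 passed, all lower in OPCs, beside 14.9% of all genes called higher in astrocytes and 25.5% in either direction. In neurons against OPCs 1 of the 4 passed, Igf1, higher in neurons, beside 7.73% of all genes called higher in neurons and 12.4% in either direction. Without OPC replicate 1 or 2 the genes called in that comparison fell from 2260 to 225 or 116, and Igf1 was not among them. The median log2 fold change of the 4 genes was -3.41 in neurons against astrocytes and -5.31 in OPCs against astrocytes, the latter with Igf1 at its bound, while the medians over all genes tested were -0.06 and -0.04. In neurons against OPCs the 4 genes had a median of 0.24 and all genes one of 0.05. The set is small and was chosen with earlier results of these data known.

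**Figure D2:**
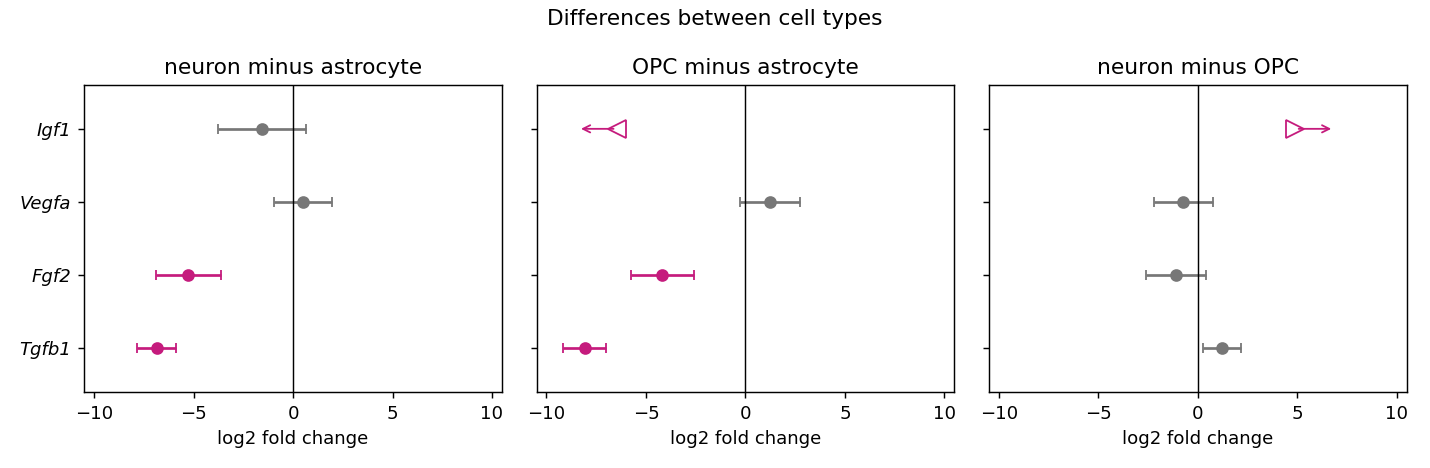
Log2 fold change of each gene in the 3 comparisons, with its 95% interval from the edgeR fit. Magenta marks an adjusted p under 0.05 and grey a higher one; open triangles with arrows are bounds for Igf1, which had 0 counts in OPCs. Tgfb1 stood at -6.86 and -8.08 against astrocytes, and the Vegfa intervals all included 0.

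Among all genes tested, differences larger in size than that of Tgfb1 were found in 3.13% of genes for neurons against astrocytes and in 2.11% for OPCs against astrocytes. For Fgf2 these shares were 6.65% and 9.83%. For Vegfa they were 70.2% and 36.0%, so its fitted differences lay within the bulk of the table.

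**Figure D3:**
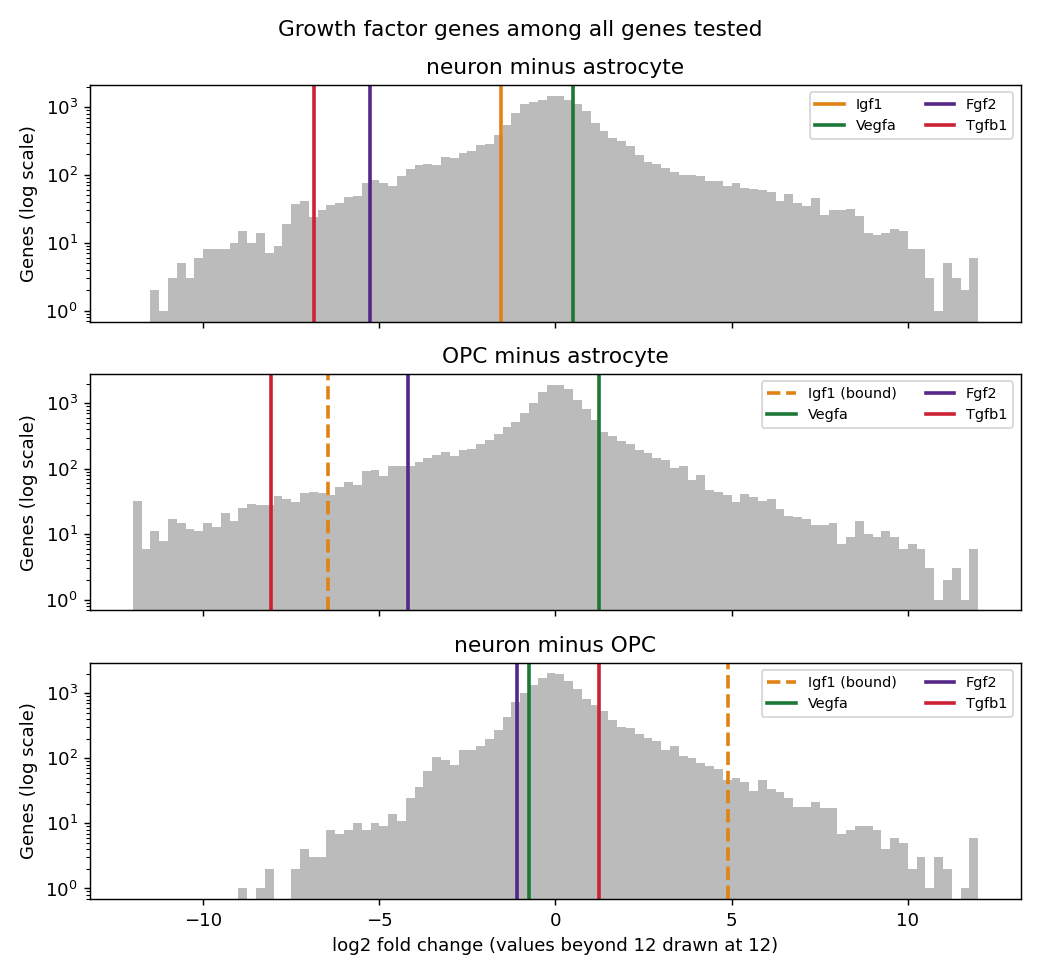
Number of genes (log axis) by log2 fold change over the 18206 genes tested, in bins of equal width, 1 panel per comparison, with coloured lines at the 4 growth factor genes and dashed lines at the Igf1 bounds. Tgfb1 and Fgf2 lie in the left tail of both comparisons with astrocytes, and Vegfa lies near the centre in all 3 panels.

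The ratio of counts between genes of the same library gives the same contrast without any scaling, since gene length and library size cancel when a ratio is compared between libraries. Astrocyte replicates 1 and 2 held 1.17 and 0.421 Vegfa counts per Tgfb1 count. In neurons the ratio was 172 and 76.2 in the replicates, and in OPCs it was 394 and 612. All 4 neuron and OPC libraries were thus above both astrocyte libraries in this ratio, and the OPC libraries were above the neuron libraries. Tgfb1 counts per Fgf2 count were 3.70 and 8.50 in astrocytes, 1.5 and 2.22 in neurons and 0.267 and 0.444 in OPCs, and the ranges of the 3 cell types did not overlap. These ratios are descriptions, with no test. Those of OPCs rest on 4 and 8 Tgfb1 counts in replicates 1 and 2, so their counting error is large. In neurons the Tgfb1 counts per Fgf2 count rest on 26 and 9 Fgf2 counts in replicates 1 and 2. Their counting error is large too, so the gap to the astrocyte ratios is uncertain. Tgfb1 itself was not called between neurons and OPCs (edgeR adjusted p = 0.0978).

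Replicates of a cell type differed by unequal amounts for the 4 genes. In astrocytes replicate 1 was higher than replicate 2 by 3.55-fold for Igf1, 2.54-fold for Vegfa and 2.10-fold for Fgf2, while Tgfb1 had a ratio of 0.915. On the log2 scale with a prior count, a larger replicate difference than that of Igf1 was seen in 3.32% of all genes tested in astrocytes, and than that of Tgfb1 in 83.1%. In neurons the ratios of replicate 1 to replicate 2 were 3.59 for Igf1, 2.78 for Vegfa, 1.83 for Fgf2 and 1.23 for Tgfb1. In OPCs the ratio was 0.573 for Vegfa, 1.48 for Fgf2 and 0.888 for Tgfb1. Igf1 and Vegfa were therefore the genes whose replicates lay farthest apart in astrocytes and in neurons.

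The patterns of the 4 genes were set against each other and against all other tested genes by the root mean square difference of centred log2 CPM over the 6 libraries. Fgf2 and Tgfb1 were the closest pair, at 1.63, and Vegfa and Tgfb1 the farthest, at 3.99. The gene most like Igf1 was ENSRNOG00000026953, at 0.306, with 83.6 and 27.6 CPM in astrocytes, 46.9 and 13.8 CPM in neurons and 0.885 and 0.628 CPM in OPCs. Igf1 had 0 counts in the OPC libraries, so its log2 values there were set by the prior count of 2. All distances from Igf1 therefore depend on that prior count. Those from Tgfb1 and Fgf2 depend on it in part, because their counts in neurons and OPCs were low. The gene most like Vegfa was ENSRNOG00000008949, at 0.274, with levels between 0.311 and 1.28 CPM. The nearest genes to Fgf2 and Tgfb1 lay at 0.201 and 0.195. Of 18202 other genes, 2 lay within 0.5 of Igf1, 54 of Vegfa, 49 of Fgf2 and 17 of Tgfb1. The files do not pair these identifiers with names.

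**Figure D4:**
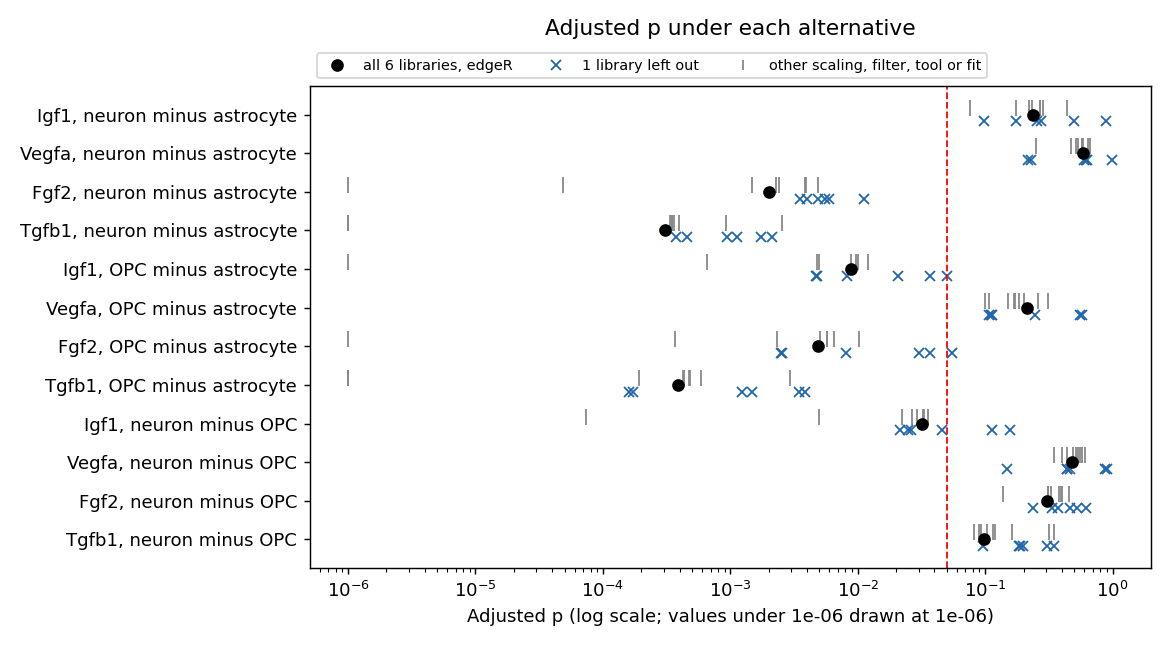
Adjusted p of each gene and comparison (log axis) with all 6 libraries by edgeR (black), with 1 library left out (blue crosses) and under other scalings, filters, tools or fits (grey ticks); the dashed line marks 0.05. Crosses pass to the right of the line for Igf1 in both comparisons with OPCs and for Fgf2 in OPCs against astrocytes, while those of Tgfb1 against astrocytes stay at 0.00388 or below.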

How the data were processed

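The authors' deposited table gives raw counts per gene for 6 libraries. Per the labels' protocols, 250 ng of column-purified RNA per sample went into standard Illumina libraries for a HiSeq instrument. For the aligner, counting tool, genome build, annotation and strand setting, the status is: not given in the sources used here. Columns were matched to samples by description, and 0 were left out. Genes were kept by filterByExpr (minimum count 10, minimum total 15), which left 18206. The 3 cell type means were fitted jointly over the 6 libraries by quasi-likelihood in edgeR 4.0.16 (R 4.3.3) with TMM factors (0.794 to 1.21) and robust estimation, leaving 3 residual degrees of freedom; p-values were Benjamini-Hochberg adjusted over all genes, with a threshold of 0.05. Standard errors and 95% intervals were derived from the F statistic. Likeness used a prior count of 2. The steps were tested on simulated data in which few genes differed between groups and none was set to be absent from a group. The simulated differences were smaller than those called for the 4 genes, so they do not check calls of that size. No library pair was identical, and 0 of the 4 genes shared its counts with another gene. Alternatives included DESeq2 1.42.0 and limma 3.58.1. All 4 genes were named in every comparison, with the nearest other gene by distance for the first 2 of the set. The genes and lists were chosen with earlier results of these data known.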

Additional observations from a re-analysis of the deposited data

How the results depend on the processing

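Of 174 values of the 4 genes under alternatives, 168 kept their direction and side of the threshold, 4 lost their call and 2 changed sign. The changes of sign were those of Vegfa in neurons against astrocytes, which was never called: the log2 fold change was -0.01 without astrocyte replicate 2 (edgeR adjusted p = 0.994) and -0.42 without neuron replicate 1 (adjusted p = 0.632). Other scalings, tools, filters and fits kept every call of the 4 genes, except that a mean of at least 5 CPM removed Igf1 and Fgf2 from the test. With total counts alone the all-gene median log2 fold change was 0.40 instead of -0.06 in neurons against astrocytes and 0.39 instead of -0.04 in OPCs against astrocytes.

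Leaving out 1 library in turn, with a lone library taken to vary as the other groups do, gave these ranges of edgeR adjusted p. In neurons against astrocytes they were 0.0977 to 0.882 for Igf1, 0.218 to 0.994 for Vegfa, 0.00349 to 0.0111 for Fgf2 and 0.000377 to 0.00211 for Tgfb1. In OPCs against astrocytes they were 0.0047 to 0.0506, 0.108 to 0.576, 0.00248 to 0.0549 and 0.000159 to 0.00388, in the same order. In neurons against OPCs they were 0.0216 to 0.156, 0.149 to 0.901, 0.235 to 0.618 and 0.0968 to 0.349. The genes called numbered 3306 to 5996, 2182 to 5831 and 116 to 2759 in the 3 comparisons, against 5532, 4649 and 2260 with all libraries. DESeq2 called 4031 genes between neurons and OPCs. The cause was not tested.

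With the replicate number as a block, no call of the 4 genes changed; the adjusted p was 0.0756 for Igf1 in neurons against astrocytes and 0.0887 for Tgfb1 in neurons against OPCs, and 6467, 4831 and 2445 genes were called. Deviations of libraries with the same number correlated at 0.147, 0.292 and 0.162 across cell types. No label says what a number marks and each cell type has 2, so whether these libraries share more than a number cannot be told.

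Depth limits the lowest levels: Tgfb1 had 12 counts in all in OPCs, and the 0 counts of Igf1 there set only an upper limit.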
